A study of Sicyos edulis with 9 samples.

Results

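In the fruit of chayote (Sicyos edulis), a cucurbit vegetable, 200 of 57814 unigenes were taken as those whose transcript level fell stepwise through storage. A unigene is a gene assembled from the reads, and each carries an identifier of the Trinity assembly. Fruits had been sampled at the optimal harvest stage (S1), at 15 days after storage (S2) and at 30 days after storage (S3), and each stage has 3 libraries. All the libraries come from whole fruit tissue labelled wild type, and no treatment other than storage time separates the stages. The study's methods state 3 independent biological replicates per stage and cool storage in plastic containers, while the series text speaks of room temperature, so the storage temperature is uncertain. How many fruits went into a library was not given in those sources. The files hold no marker genes or names by which the labelled tissue could be checked.

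The values chose the members, as follows. The level of a unigene was taken as log2(FPKM + 1), where FPKM is the number of fragments of a unigene scaled for its length and for the depth of the library. The files do not name their unit, and the values were treated as FPKM, as the study's figure legends call them, while its methods name log2-RPKM. In 1730 unigenes, 2.99% of the 57814, every S1 library was above every S2 library and every S2 library above every S3 library. Of these, 3 had a mean of at least 800 FPKM over the 9 libraries and 25 stand in the study's lists of flavonoid genes and transcription factors, and both kinds were set aside, which left 1702. The 200 members are those with the largest smaller step, which is the lesser of the fall between S1 and S2 and the fall between S2 and S3. The order of the stages, the absence of overlap and the size of the falls are therefore properties of the choice and are given as a description without a test. The opposite order, with S1 below S2 and S2 below S3 and no overlap, was met by 1168 unigenes (2.02%).

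A harvested fruit no longer receives water and sugars from the plant, but its cells go on respiring, and the set of transcripts in its tissue changes as reserves are used and ripening or senescence proceeds. The level of a transcript in tissue is set by its synthesis, by its degradation and by how many cells of the kind that makes it are present. Bulk RNA gives the level in the whole tissue, so fewer cells of a type and less RNA per cell cannot be told apart for any unigene described here. Phenylpropanoid and flavonoid synthesis, the subject of the study, runs through enzymes such as phenylalanine ammonia-lyase (PAL) and UDP-glycosyltransferases (UGTs) and is controlled in plants by transcription factors of the MYB, bHLH and other families.

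Total FPKM per library ranged from 801066 to 914583. The depth of the libraries, estimated from the steps that single reads make between low values, was 0.712 to 1.29 times that of S1 replicate 2. The S3 libraries had a relative depth of 0.712 to 0.841. The read totals per library that the study reports were not used for this estimate or compared with it. S1 replicate 1 stood apart within its stage. Across the 30201 tested unigenes, its log2(FPKM + 1) had a Pearson's r of 0.921 with S1 replicate 2 and 0.924 with S1 replicate 3, while replicates 2 and 3 had 0.960 with each other (a description, as unigenes are not independent replicates). Without S1 replicate 1, the number of unigenes ordered without overlap was 3510 in place of 1730, and the same choice returned 149 of the 200 members. Fewer libraries make such an order easier to meet. With any other single library left out, the number was 1903 to 2245, and 171 to 192 of the members were returned.

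None of the 200 members has a gene name. No member stands in the study's list of structural flavonoid genes, of which 91 of 95 could be matched to a unigene of the files, and the files pair no identifier with an annotation. The members are therefore described by their identifiers and their values, and nothing is said of what their products do.

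As a group, the members lost most of their transcript level at each step. Their summed FPKM was 13759, 15238 and 12673 in the S1 libraries, 2785, 2684 and 3160 in the S2 libraries, and 354, 318 and 300.4 in the S3 libraries. The sums of the stages did not overlap, as the choice requires of each member. As a share of all FPKM in a library, the 200 members held 1.58% ± 0.143 at S1, 0.317% ± 0.0254 at S2 and 0.0399% ± 0.00407 at S3 (each ± SD, n = 3). The S1 share was 1.58%, 1.72% and 1.43% in replicates 1, 2 and 3, so that of S1 replicate 1, in which many members were low as given below, lay between the others. This sum rested on few unigenes: the 4 members with the highest S1 mean made up 23.0% of it in S1, and the 20 highest made up 55.1%.

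**Figure D1:**
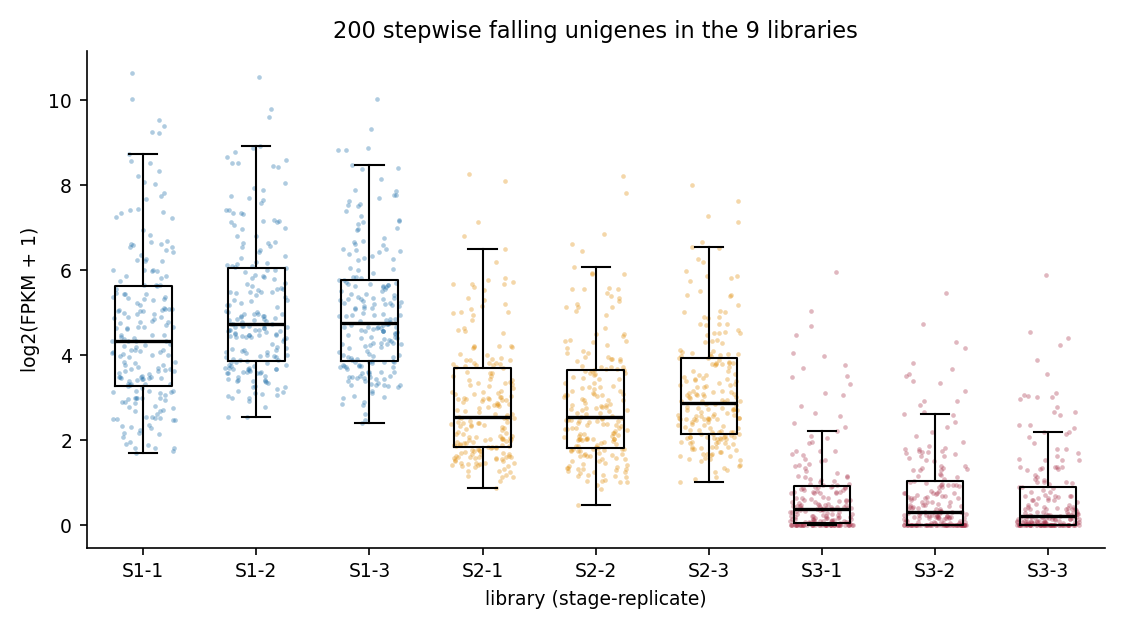
Level of the 200 unigenes in each of the 9 libraries, as log2(FPKM + 1) on the vertical axis. Each point is 1 unigene, boxes span the quartiles with the median as a thick line, and whiskers reach the last point within 1.5 times the box height. The median FPKM was 19.1, 25.5 and 25.9 in the S1 libraries, 4.84, 4.795 and 6.35 in S2, and 0.310, 0.250 and 0.155 in S3.

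Over the members, the stage mean lay between 5.26 and 1376 FPKM in S1 (median 22.7), between 1.43 and 266 FPKM in S2 (median 5.51) and between 0 and 54.3 FPKM in S3 (median 0.275). In S1, 34 members had a mean of at least 100 FPKM, 138 had 10 to 100 and 28 had less than 10. The typical member thus stood at a middling level at harvest and near the lower end of what the libraries resolve after 30 days. The S2 mean was 24.3% of the S1 mean in the median member, with a range of 2.08% to 42.6%. The S3 mean was 5.05% of the S2 mean and 1.09% of the S1 mean in the median member. Only 4 members kept more than 10% of their S1 mean in S3, with 12.9% as the highest, while 101 kept 1 to 10% and 95 kept less than 1%.

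Differences between stages are given on the log2(FPKM + 1) scale, which understates the change of low unigenes. The median difference was -1.71 for S2 minus S1, -1.99 for S3 minus S2 and -3.91 for S3 minus S1. Over all 30201 tested unigenes, the medians of S2 minus S1 and of S3 minus S2 were -0.03 and 0.00. A unigene counted as tested when it had at least 1 FPKM in at least 3 libraries, and all 200 members passed this filter, as their S1 levels made certain. Of the tested unigenes, 1580 (5.23%) were ordered without overlap. In limma with Benjamini-Hochberg adjusted p below 0.05, 186 of the 200 were lower in S2 than in S1, where 10.7% of all tested unigenes were. In S3 against S2, 196 members were lower, beside 23.2% of tested unigenes, and in S3 against S1 all 200 were, beside 25.4%. Both steps were called in 183 members, beside 2.06% of tested unigenes. The choice used these same contrasts, so nothing is read from these counts.

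The number called in the first step moved with the settings. It was 96 with a pseudocount of 0.01 in place of 1 and 117 at an adjusted p below 0.01, and the members called in both steps were 96 and 108 under these settings. Without S2 replicate 1, 121 members were called in both steps. The share of all tested unigenes called was not computed under these settings, so whether calls fell in general was not tested. Of the 14 members not called in the first step, 7 had a value in S1 replicate 1 at most 0.5 times that in both other S1 libraries. The median SD of their S1 levels was 1.07 on the log2 scale, against 0.55 among the members that were called.

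The members also depend on the pseudocount of the choice itself. With a pseudocount of 0.1 the same choice returned 92 of the 200, and with 0.01 it returned 57. The FPKM values do not change with it, but the steps on the log2 scale do. At the edge of the choice the values ran on without a gap. The last member, TRINITY_DN5796_c0_g1, had a smaller step of 1.23 and the one before it, TRINITY_DN34025_c0_g1, had 1.24. The first unigenes left out, TRINITY_DN4617_c5_g2 and TRINITY_DN8905_c0_g1, both had 1.23 to 2 decimals. TRINITY_DN34025_c0_g1 had 26.1, 26.5 and 27.1 FPKM in S1, 9.61, 9.93 and 12.8 in S2 and 0.70, 0.93 and 3.88 in S3. TRINITY_DN4617_c5_g2 had 6.51, 9.52 and 6.84 FPKM in S1, 1.06, 2.91 and 4.92 in S2 and was listed at 0 in all 3 S3 libraries. The members had a median smaller step of 1.57 and the 1502 ordered unigenes that were not taken had 0.46.

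**Figure D2:**
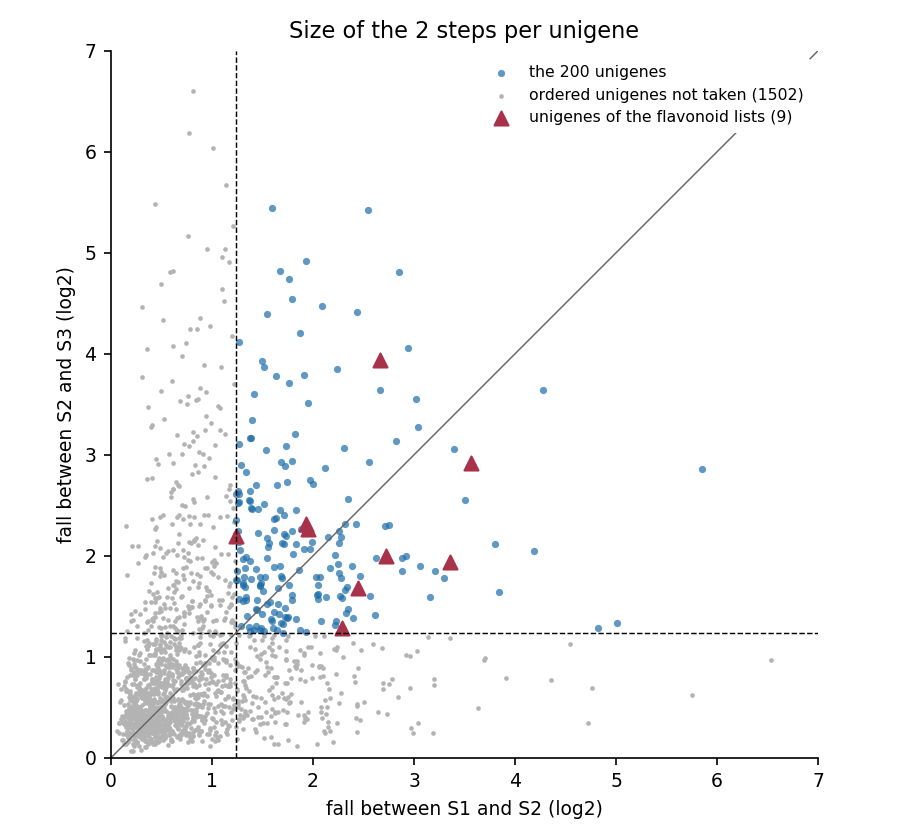
Fall in log2(FPKM + 1) between S1 and S2 (horizontal axis) and between S2 and S3 (vertical axis) for each ordered unigene. Blue points are the 200 members, grey points the 1502 ordered unigenes not taken, and red triangles 9 unigenes of the study's flavonoid lists that were set aside. Dashed lines mark the smallest step of a member, 1.23, and the grey diagonal marks equal steps. More members lie above the diagonal (120) than below it (80).

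The 6 members with the largest smaller step began at high levels and lost a large part in each period. TRINITY_DN3941_c0_g1 led them, with 269, 481 and 339 FPKM in the S1 libraries, 13.8, 19.3 and 19.3 in S2 and 0.87, 0.70 and 0 in S3. Its level differed by -4.27 for S2 minus S1 and by -3.64 for S3 minus S2. In S2 it was already at 4.82% of its S1 mean, and the lowest S2 library stood far above the highest S3 library.

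TRINITY_DN1004_c0_g5 had 93.1, 205 and 142 FPKM in S1, 10.5, 11.7 and 15.3 in S2 and 0.56, 0.47 and 0.78 in S3. Both of its steps exceeded 3 on the log2 scale, with -3.40 and -3.06. It was low in S1 replicate 1 relative to the other S1 libraries, by 0.87 on the log2 scale, yet that library was still several times above every S2 library. TRINITY_DN3759_c0_g2 and TRINITY_DN29441_c0_g1 had even steps of the same kind, with means of 115, 12.6 and 0.450 FPKM and of 129, 14.9 and 0.357 FPKM in S1, S2 and S3. In both of these the SD in FPKM was larger in S1, with 40.7 and 28.3, than in S2, with 0.367 and 2.41. The S1 means were also the higher ones, so these SDs are not spreads relative to the level.

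TRINITY_DN269_c1_g1 was high in S1 replicate 1, with 380.3 FPKM in that library and 143 and 95.5 in the other S1 libraries. Its S2 libraries were close to each other, with 22.6, 21.6 and 21.2 FPKM, and its S3 libraries held 0.56, 0.25 and 0.31. TRINITY_DN29056_c0_g1 was the least even of the 6. It had 297, 893 and 353 FPKM in S1 and 2.23, 1.62 and 57.6 in S2, while S3 replicates 1 and 2 were listed at 0 and replicate 3 held 0.30. Its S2 mean of 20.5 ± 32.2 FPKM (SD, n = 3) was set by S2 replicate 3 alone, and limma did not call its second step.

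**Figure D3:**
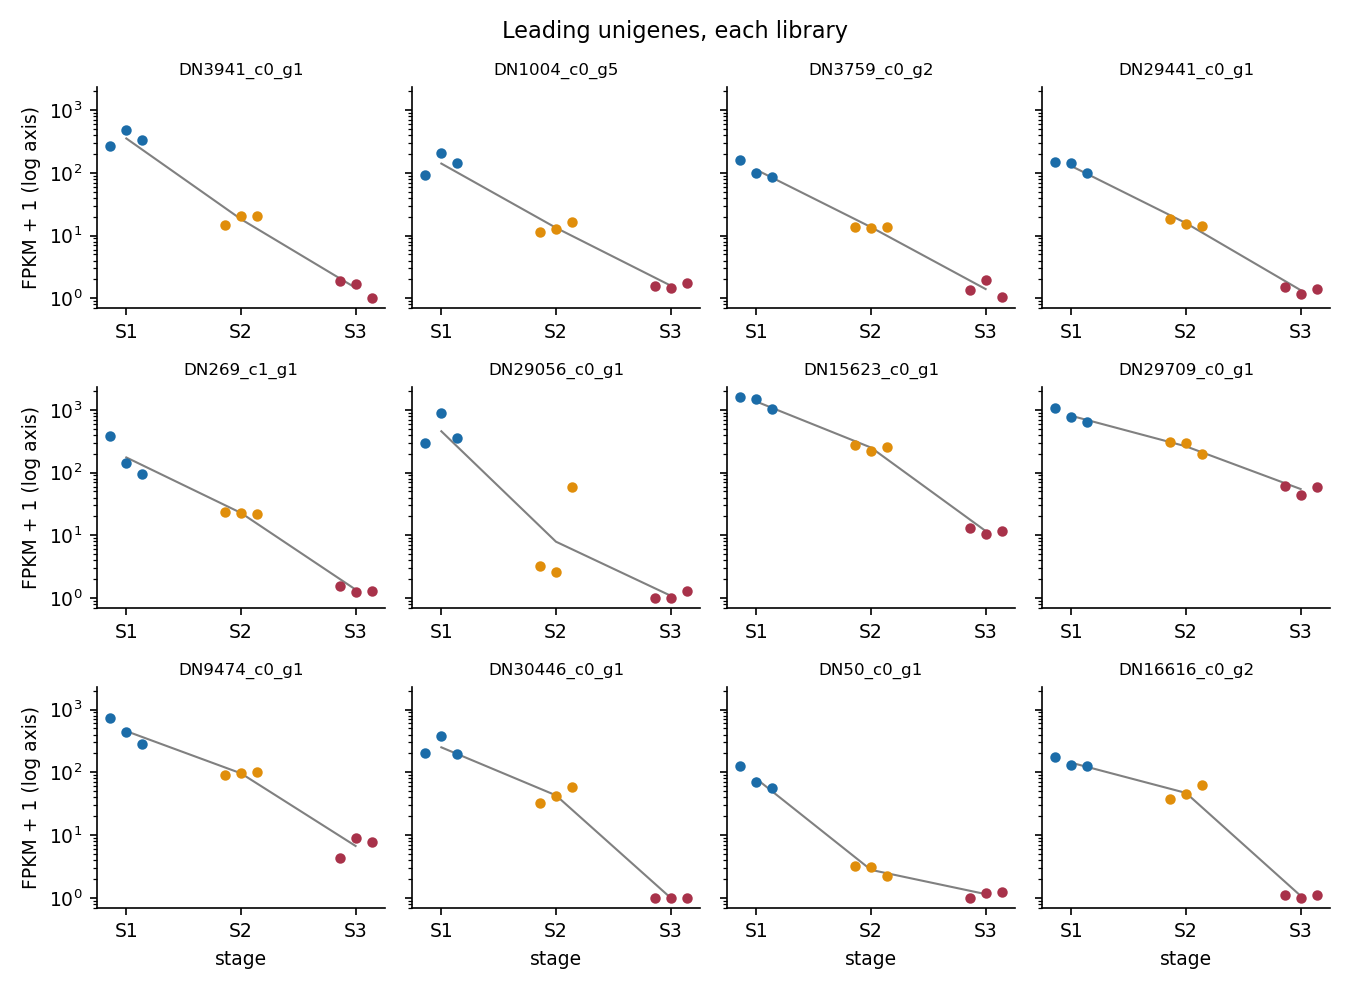
Level of 12 members in each library, as FPKM + 1 on a logarithmic axis, with the stages along the horizontal axis. Points are the 3 libraries of a stage, replicates 1 to 3 left to right, grey lines join the means of log2(FPKM + 1), and titles leave out the prefix TRINITY_. The panels show the 6 largest smaller steps, then the other members with the highest S1 mean or the largest total fall, and last the member with the largest share of its fall in the first step and the member with the largest share in the second. In TRINITY_DN29056_c0_g1, S2 replicate 3 sits at 57.6 FPKM, far above the other S2 libraries.

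The most abundant member was TRINITY_DN15623_c0_g1, with 1585, 1498 and 1043 FPKM in S1, 272, 224 and 255 in S2 and 11.95, 9.53 and 10.8 in S3. It alone made up 9.90% of the members' FPKM in S1. Its second step, -4.42, was larger than its first, -2.44. TRINITY_DN29709_c0_g1 was the next in S1, with 1051, 772 and 635 FPKM, and had 305, 295 and 197 in S2 and 61.1, 43.2 and 58.5 in S3. It was the highest member in S2 and in S3, and in S3 it held 16.8% of the members' FPKM. The order among members was thus partly kept: of the 20 highest in S1, 14 were among the 20 highest in S2 and 12 among the 20 highest in S3. TRINITY_DN9474_c0_g1 had a mean of 488 ± 234 FPKM at S1, 95.5 ± 6.0 at S2 and 6.03 ± 2.46 at S3 (each ± SD, n = 3).

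In S3, 27 members were listed at 0 in all 3 libraries and 80 in at least 1, while in S1 and S2 no member was listed at 0 in any library. A mean below 1 FPKM in S3 was found for 152 members, a mean of 1 to 10 for 39 and a mean of at least 10 for 9. No read counts or lengths come with the values, so a listing at 0 cannot be turned into an upper limit. TRINITY_DN30446_c0_g1 and TRINITY_DN31190_c0_g1 were the members with a mean of at least 100 FPKM in S1 and a listing at 0 in every S3 library. TRINITY_DN30446_c0_g1 had the second largest total fall, with 204, 382 and 198 FPKM in S1 and 31.6, 40.8 and 57.2 in S2. TRINITY_DN31190_c0_g1 had 224, 202 and 180.4 FPKM in S1 and 29.7, 20.7 and 32.1 in S2 (chosen after its values were seen). At the other end, TRINITY_DN4661_c0_g1 (also chosen after its values were seen) had 670.0, 366 and 334 FPKM in S1. It had 139.9, 114 and 155 in S2 and still 32.0, 18.9 and 22.4 in S3. The lowest S3 mean above 0 belonged to TRINITY_DN1171_c0_g2, with means of 21.7 FPKM in S1 and 3.47 in S2, listed at 0 in S3 replicates 1 and 2 and at 0.03 FPKM in replicate 3.

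The second step was larger than the first in 120 members and smaller in 80, and in 16 members the steps lay within 0.1 of each other. The first step made up between 22.7% and 79.0% of the whole fall, with a median of 46.5%. A level that nears 0 limits the second step, since log2(FPKM + 1) cannot go below 0. In 83 members the second step took at least 90% of the S2 level, and the median was 86.9%. The balance differed between classes of S1 abundance. Members with an S1 mean of at least 100 FPKM had median differences of -2.35 and -3.21 in the first and second step. Those with 10 to 100 FPKM had -1.73 and -2.0, and those under 10 FPKM had -1.46 and -1.44. The first step was the larger in 9 of 34, 56 of 138 and 15 of 28 members of these classes. Each step of a member was at least 1.23, and a low S1 level leaves little room beyond that. The choice thus bears on this difference between classes, and nothing is read from it.

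The extremes of this balance were clear in single libraries. TRINITY_DN50_c0_g1 lost 79.0% of its total fall in the first step, with 123, 68.0 and 56.2 FPKM in S1, 2.20, 2.07 and 1.20 in S2 and 0, 0.20 and 0.25 in S3. TRINITY_DN3324_c0_g1 was much like it, with an S1 mean of 83.3 ± 26.7 FPKM and an S2 mean of 1.74 ± 1.21 FPKM (SD, n = 3 each), and was listed at 0 in all of S3. By 15 days both had S2 means of 2.21% and 2.08% of their S1 means. TRINITY_DN16616_c0_g2 lay at the opposite extreme, with 173, 127 and 127 FPKM in S1, 36.0, 43.3 and 61.9 in S2 and 0.12, 0 and 0.11 in S3. It kept 33.0% of its S1 mean at S2 and 0.163% of its S2 mean at S3, and its first step made up 22.7% of its fall. TRINITY_DN10327_c1_g1 also fell mainly in the second period, with means of 46.1, 18.2 and 0.10 FPKM in S1, S2 and S3. The most even steps belonged to TRINITY_DN7289_c0_g2, with -2.31 and -2.32, and to TRINITY_DN32516_c0_g1, with -1.86 and -1.86.

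The distance between single libraries shows how far the stages were apart in a member. In 193 of the 200 members, the lowest S2 library was at least 2 times the highest S3 library. In 110 members the lowest S1 library was at least 2 times the highest S2 library, and 109 members met both. These are ratios of FPKM, and S3 values at or near 0 make a ratio of this size easy to reach in the second period.

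The replicates of a stage also spread. The median SD of a member's level was 0.58 on the log2 scale in S1, 0.24 in S2 and 0.18 in S3, where all tested unigenes had 0.30, 0.15 and 0.24. The ordered unigenes not taken had 0.21, 0.11 and 0.13. The choice bears on these values: an ordered unigene with a small first step can hold only a narrow S1 spread, so nothing is read from the lower value of the unigenes not taken.

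Within their stages, the members were unevenly spread over the libraries. S1 replicate 1 was the lowest S1 library in 117 members and the highest in 60. In 66 members (33.0%) its value was at most 0.5 times both other S1 values, which was so in 12.6% of all tested unigenes. In 11 members (5.50%) it was at least 2 times both others, beside 8.76% of tested unigenes. The choice used these same values, so these shares are a description of the members, and no comparison is made with the ordered unigenes not taken. TRINITY_DN36537_c0_g1 is an example of the low kind, with 100.5 FPKM in S1 replicate 1 and 468 and 467 in replicates 2 and 3. TRINITY_DN20095_c0_g1 is an example of the high kind, with 80.9 FPKM in replicate 1 and 20.6 and 9.52 in replicates 2 and 3 (both chosen after their values were seen).

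S2 replicate 3 was the highest S2 library in 142 members (71.0%), beside 37.9% of tested unigenes and 51.1% of the ordered unigenes not taken, whose S2 values the choice also used. Among the 66 members that were low in S1 replicate 1, S2 replicate 3 was the highest S2 library in 56, and among the 123 members without such a difference in S1 it was so in 80, and this difference was not tested. The median FPKM of the 66 was 7.90, 25.6 and 25.6 in the S1 libraries, 3.20, 3.19 and 4.39 in S2 and 0.220, 0.155 and 0.075 in S3. Their median first step was -1.78 and that of the 123 others -1.61. The relative depth of S1 replicate 1 was 0.796 and that of S2 replicate 3 was 0.877, and the part of depth in these patterns was not tested.

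**Figure D4:**
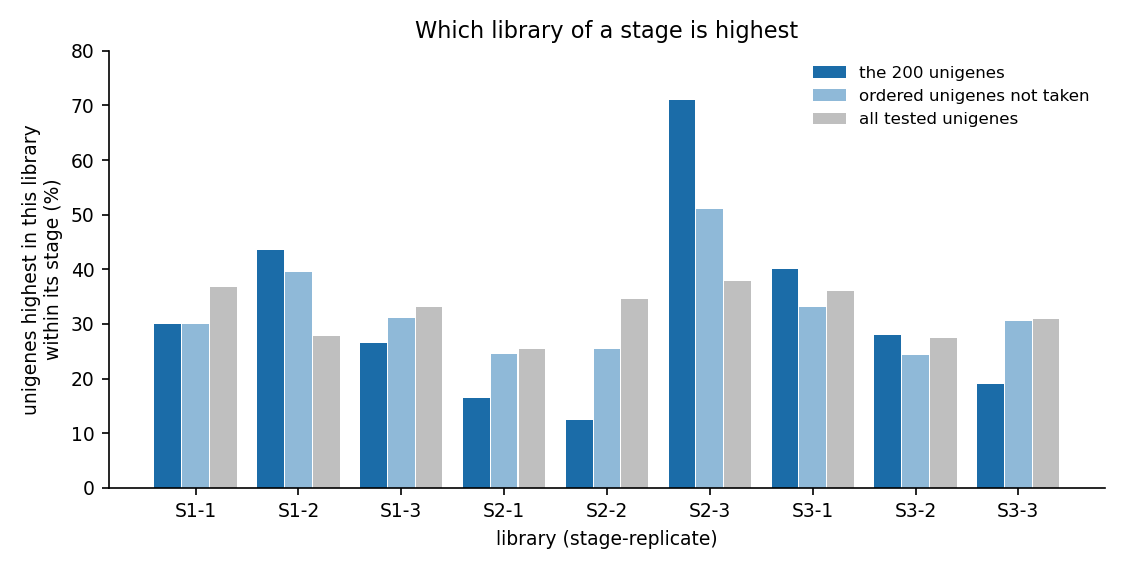
Percentage of unigenes that were highest in a given library among the 3 libraries of its stage. Dark blue bars are the 200 members, light blue bars the 1502 ordered unigenes not taken and grey bars all 30201 tested unigenes. S2 replicate 3 was highest in 71.0% of the members and in 37.9% of tested unigenes.

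The Trinity assembler groups transcripts that share sequence into components, and unigenes of 1 component can be near-identical copies, alleles or pieces of 1 gene. The 200 members came from 193 components. In 7 components a pair of unigenes were both members, and no component held 3 or more. Reads can be split between the unigenes of a component, so the separate values of such a pair are uncertain. The pairs were chosen for description after their values were seen.

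In TRINITY_DN120_c1 the pair could hardly be told apart: g1 had 19.3, 47.1 and 37.7 FPKM and g2 had 21.3, 44.2 and 35.4 FPKM in S1, and both were listed at 0 in all of S3. In TRINITY_DN3260_c0 the pair had 112, 265 and 206 FPKM (g1) and 63.5, 244 and 218 FPKM (g3) in S1. It was close in S2 and separated in S3. Its g1 had 53.6, 34.4 and 52.5 FPKM in S2 and g3 had 50.3, 35.7 and 55.2, whereas in S3 g1 kept 9.0, 6.6 and 3.45 FPKM and g3 had 0.10, 1.01 and 1.14. In TRINITY_DN1004_c0 the pair differed in the middle. Its g5 had 10.5, 11.7 and 15.3 FPKM in S2, below the 31.3, 45.7 and 25.6 FPKM of g1, and the pair overlapped in S1 and in S3. TRINITY_DN7323_c0 showed the same kind of difference, with S2 means of 5.89 FPKM in g3 and 12.7 FPKM in g2. In TRINITY_DN9474_c0, g1 stood above g3 in every library, with S1 means of 488 and 104 FPKM. In TRINITY_DN19312_c0 and TRINITY_DN5571_c0 both unigenes were low in S1 replicate 1, with 6.43 and 4.14 FPKM and with 3.48 and 3.19 FPKM, against 10.4 to 33.6 FPKM in the other S1 libraries.

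**Figure D5:**
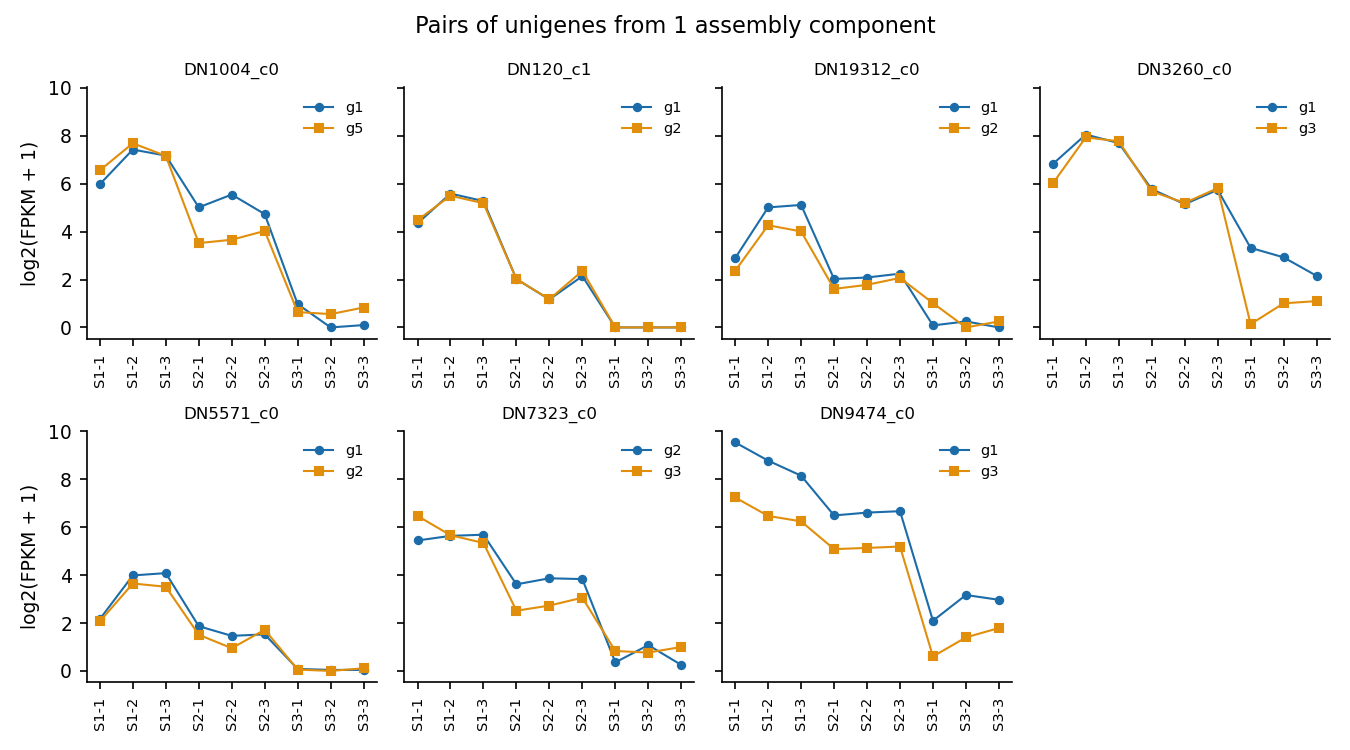
Level of the 7 pairs of members that share an assembly component, as log2(FPKM + 1), in the 9 libraries along the horizontal axis. Each panel is a component, with its 2 unigenes in blue and orange, and titles leave out the prefix TRINITY_. The pair of DN120_c1 overlies in every stage, while that of DN3260_c0 separates in S3.

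In 79 of the components, 165 further unigenes were not members, of which 101 passed the filter and are called sister unigenes here. They entered by sharing a component with a member, with which they can also share reads. They are what was left once the members had been chosen by the order and smaller step of their log2(FPKM + 1) values. The filter also uses values, and a sister can pass it through 1 stage alone. TRINITY_DN10622_c0_g2 passed through S1 (1.34, 5.83 and 2.01 FPKM) and TRINITY_DN7289_c0_g3 through S3 (4.05, 6.17 and 5.82 FPKM). The choice and the filter thus bear on the shares of sisters given here. In limma with adjusted p below 0.05, 35 of the 101 sisters (34.7%) were lower in S2 than in S1, beside 10.7% of all tested unigenes, and 8 (7.92%) were higher, beside 7.24%. In S3 against S2, 34 (33.7%) were lower, beside 23.2%, and 18 (17.8%) were higher, beside 23.3%. In S3 against S1, 59 (58.4%) were lower, beside 25.4%, and 17 (16.8%) were higher, beside 22.1%. The median difference of the sisters was -0.52 for S2 minus S1, -0.56 for S3 minus S2 and -1.47 for S3 minus S1. The count of 35 was not steady: it was 15 with a pseudocount of 0.01, 16 with a filter at 5 FPKM and 16 to 37 with single libraries left out. The filter at 5 FPKM also leaves fewer sisters in the test. Shares of all tested unigenes were not computed for these settings, so the counts stand without them.

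Both steps were called as falls in 10 of the 101 sisters (9.90%) and as rises in 0 by limma, beside 2.06% and 1.01% of tested unigenes. The counts were 18 and 1 at an unadjusted p below 0.05 and 10 and 0 by limma without the trend. Of all 165 further unigenes, 26 (15.8%) had the same order of libraries as the members, beside 2.99% of all unigenes, and 1 (0.606%) the opposite order, beside 2.02%. TRINITY_DN4631_c0_g1 fell in both periods, with 60.8, 103 and 96.9 FPKM in S1, 40.8, 43.4 and 28.3 in S2 and 5.30, 6.83 and 4.53 in S3. Its differences were -1.18 (limma adjusted p = 0.0128) and -2.55 (limma adjusted p = 8.54e-05). The member of its component, TRINITY_DN4631_c0_g2, had 95.7, 191 and 135 FPKM in S1, 50, 46.0 and 41.5 in S2 and 10.4, 10.7 and 7.35 in S3. TRINITY_DN358_c0_g2 was like it in the first period, with a difference of -0.82 (limma adjusted p = 0.0309), and fell more in the second, with -3.23 (limma adjusted p = 1.32e-05).

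TRINITY_DN22806_c0_g3 had the opposite order, with 14.5, 10.9 and 15.1 FPKM in S1, 18.0, 17.6 and 20.5 in S2 and 35.8, 44.2 and 49.5 in S3. Its second step of 1.15 passed the test (limma adjusted p = 5.73e-04) and its first step of 0.45 did not (limma adjusted p = 0.0917). The member of that component, TRINITY_DN22806_c0_g1, had 39.2, 72.7 and 47.4 FPKM in S1, 15.4, 19.6 and 14.7 in S2 and 7.65, 6.57 and 3.61 in S3. Unigenes of this component thus had opposite orders in the same libraries.

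The unigenes of the study's flavonoid lists had been set aside by the choice, and 9 of them had the same order and steps at least as large as the smallest of a member. The lists were drawn up by the study on these samples, so they are not independent evidence of a direction. The study lists genes under positive and negative regulation associated with flavonoid synthesis. It reports those under positive regulation as increased in both S1 vs. S2 and S2 vs. S3. The transcription factors under negative regulation it reports as down-regulated in both. The counts that follow therefore come in part from the listing itself, and nothing is read from them. Among the 19 structural genes under positive regulation, 7 were ordered S1 above S2 above S3 without overlap and 4 reached the step of the members. Among the 29 transcription factors under positive regulation, 18 were ordered in this way and 5 reached the step. Of the 9 structural genes and 35 transcription factors under negative regulation, 0 were ordered in this way, and 1 and 8 had the opposite order. Of all unigenes, 2.99% were ordered, but these were not listed by direction, so the shares are not alike.

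The MYB factor FSG0083540 (TRINITY_DN35951_c0_g1) had the largest smaller step of the 9, and only 5 members exceeded it. MYB proteins are transcription factors, and some of them activate flavonoid genes in plants. It had 95.4, 114 and 107 FPKM in S1, 7.42, 6.15 and 11.1 in S2 and 0.31, 0 and 0.28 in S3. The bHLH factor FSG0002660 (TRINITY_DN34540_c0_g1), of a family that often acts with MYB proteins, had 219, 217 and 121 FPKM in S1, 3.32, 64.0 and 80.9 in S2 and 0.90, 0.14 and 1.92 in S3. Its S2 libraries did not form one level, since replicate 1 lay far below replicates 2 and 3. The MYB factors FSG0047650 and FSG0221650 and the bZIP factor FSG0013290 had S1 means of 40.8, 20.4 and 34.4 FPKM and S3 means of 0.597, 0.10 and 1.15 FPKM.

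The 4 structural genes were 2 UGTs, which attach sugars to flavonoids and other acceptors, a PAL, which opens the phenylpropanoid pathway, and an isoflavone reductase (IFR), an enzyme of isoflavonoid synthesis. SeUGT2 (TRINITY_DN1817_c0_g1) was the most abundant, with 723, 339.9 and 308 FPKM in S1, 181, 100.4 and 70.4 in S2 and 16.2, 22.2 and 28.5 in S3. SeUGT3 (TRINITY_DN11664_c0_g1) had means of 88.7 ± 11.8, 7.99 ± 2.68 and 1.27 ± 0.115 FPKM in S1, S2 and S3 (SD, n = 3 per stage). SePAL1 (TRINITY_DN1395_c0_g2) had 5.48, 17.9 and 41.5 FPKM in S1, 2.12, 4.71 and 1.53 in S2 and 1.24, 0.12 and 0.24 in S3; S1 replicate 1 was thus close to the highest S2 library. SeIFR2 (TRINITY_DN9432_c0_g2) had means of 11.4, 3.89 and 0.0633 FPKM in S1, S2 and S3. Another of the study's lists gives the values of all 4 of these unigenes under other stages and calls the UGTs by other numbers. The stages of the deposited libraries, and the names of the list of positive and negative regulation, were followed here.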

How the data were processed

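RNA of 9 chayote fruit libraries, 3 per stage, was sequenced, after mRNA purification according to the methods. The labels and the study's methods name different RNA extraction kits. The authors deposited FPKM per unigene with 2 decimals, from reads filtered with fastp, of which no version is given; the unit is not named in the files, and the mapper, counter and scaling were not stated in the sources read. No counts per unigene and no unigene lengths come with the values, so counting error could not be given. Depth was estimated here only relative to S1 replicate 2. The study reports read totals per library, which were not used. In the file of S1 replicate 1, 8 unnamed columns hold values in 1 row and were not used. Libraries were grouped by the stage in their labels.

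Values were read with Python 3.11.15 (numpy 2.4.6, pandas 2.3.3, matplotlib 3.10.9). The pseudocount was 1. The 9 libraries were fitted together in R 4.3.3 with limma 3.58.1 (lmFit, and eBayes with trend) over 30201 unigenes with at least 1 FPKM in at least 3 libraries, and p-values were adjusted by the Benjamini-Hochberg method over all of them, with a threshold of 0.05. A p-value sets a difference between stages against the spread between libraries within stages. The fit shares its estimate of that spread over all stages and moderates it by the trend with abundance. The study's methods name a T-test for group comparisons in general. The choice and the fit were checked on simulated data.

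The 200 members, the lists and the tests were chosen with earlier results of these data known. The text names the members with the 6 largest smaller steps, the 4 highest S1 means, the 3 largest total falls, the largest shares of the fall in either step, the most equal steps, the lowest and highest S3 means, those at the edge of the choice, the unigenes of the study's lists that reach the step, and a few sister unigenes that moved in both steps; others are said to be chosen after their values were seen. Names come from the study's lists, whose values were not used except to match 91 of 95 structural genes without identifiers. Alternatives were pseudocounts of 0.1 and 0.01, other filters, 2 other scalings, a fit without trend, the 6 libraries of the stages compared, a replicate block, each library left out, stricter thresholds, and values under 0.1 FPKM set to 0. Gene families, pathways and sequences of the members were not analysed here.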

Additional observations from a re-analysis of the deposited data

How the results depend on the processing

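Of 162 recomputed counts and shares, 143 stayed within 1.5 times the value reported, or within 1 SD for the shares. This limit is wide: 125 members lower in S2 than in S1, in place of 186, lie within it. Many of the 162 are counts of members called, whose steadiness the choice largely fixed in advance. Sister unigenes called lower in S2 than in S1 moved beyond the limit in 10 of 20 alternatives, and those lower in S3 than in S2 in 0 of 20. Directions were not recomputed, and that of the members follows from the choice. With a pseudocount of 0.01, 96 members were called lower in S2 than in S1 and 96 in both steps, and at an adjusted p below 0.01 these counts were 117 and 108. The same choice returned 92 of the 200 members with a pseudocount of 0.1 and 57 with 0.01. Sister unigenes called lower in S2 than in S1 numbered 23 and 15 with these pseudocounts. With a filter at 5 FPKM, which tests fewer sisters, they numbered 16. They numbered 22 in a fit of the 6 libraries of the stages compared and 12 at an adjusted p below 0.01. The members' share of FPKM in S2 was 0.361% once the 10 most abundant unigenes were left out of the total. The share of all tested unigenes called was not computed under these settings, and the cause of these shifts was not tested.

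With single libraries left out, members called in both steps ranged from 121 (without S2 replicate 1) to 187, sister unigenes called lower in S2 than in S1 from 16 to 37, and unigenes ordered without overlap from 1903 to 3510 (without S1 replicate 1). Fewer libraries per stage make an order without overlap easier to meet. Same-numbered libraries of different stages did not deviate together (r of -0.14 to 0.04 over 9 pairs), nor did every library correlate best with its own number, so the numbers do not pair them. With the replicate number as a block, 164 members were called lower in S2 than in S1, 193 in S3 than in S2 and 162 in both steps. Shares of all tested unigenes with the block or with a library left out were not computed. Low values limit what can be said of S3, where 152 members had a mean below 1 FPKM. The relative depth of the S3 libraries, 0.712 to 0.841, overlapped that of the S1 libraries, 0.779 to 1.0. The part of depth in the low S3 values was not tested.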
